A study of Mus musculus with 4 samples.

Results

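Genes of heme and iron handling, 10 of the 32285 in the deposited counts, were followed through the leukocytes of the mouse ovary. They were found by their symbols and are Hmox1, Blvrb, Slc40a1, Fth1, Ftl1, Cd163, Spic, Tfrc, Gclm and Slc7a11. C57BL/6J females, 10 to 12 weeks old, gave their ovaries 48 h after a gonadotropin, a hormone class that acts on follicles, or 48 h after saline, a group that the labels call untreated. The hormone preparation and its dose are not given in the sources used here. Viable cells carrying CD45, the surface protein of leukocytes, were sorted from 5 gonadotropin and 5 untreated mice. Hashtag antibodies told the mice apart within a pool, and each group was 1 pool and 1 droplet library, counted in unique molecular identifiers (UMIs). Treatment, pool and library therefore cannot be told apart, and the mouse is the replicate throughout.

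Macrophages that take up aged red cells break down hemoglobin, free the heme and open its ring with heme oxygenase, which releases iron, carbon monoxide and biliverdin. The iron is stored in ferritin or leaves the cell through ferroportin, and biliverdin is reduced in turn. Free heme and iron are oxidants, and the transcription factors that answer to them also switch on genes of glutathione synthesis. The ovary bleeds locally when follicles rupture, and its macrophages clear red cells and dying follicle cells. The hemoglobin transcripts of the same libraries were therefore read beside these genes.

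The cells kept were hashtag singlets with 500 or more genes and less than 10% of UMIs from mitochondria, 4918 in all, 2423 of the gonadotropin group (290 to 828 a mouse, median 7034 UMIs) and 2495 of the untreated group (296 to 726 a mouse, median 7664 UMIs). Cell types were gated on markers that exclude the 10 genes. The gate held 1050 gonadotropin and 1383 untreated B cells, 228 gonadotropin and 157 untreated mononuclear phagocytes, and 76 gonadotropin and 37 untreated neutrophils. The gonadotropin phagocytes held 68 macrophages with Trem2 and C1q genes, called Trem2-type here, 8 peritoneal-type macrophages, 63 classical and 64 non-classical monocytes and 22 dendritic cells. The untreated ones held 27 Trem2-type and 11 peritoneal-type macrophages, 46 classical and 48 non-classical monocytes and 24 dendritic cells. A gate for Cx3cr1-type macrophages held 3 gonadotropin cells and 1 untreated cell. Neutrophil markers stood at 138.5 UMIs per 10000 in gated neutrophils and 0.750 in Trem2-type macrophages. Trem2-type markers stood at 92.9 in Trem2-type macrophages and 0.216 in neutrophils. They also stood at 68.8 in peritoneal-type and 154.7 in Cx3cr1-type macrophages, so they alone do not set the macrophage types apart. Peritoneal-type markers stood at 88.95 in peritoneal-type and 3.49 in Trem2-type macrophages. Only 4 barcode sequences occurred in both libraries.

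Blvrb, Gclm and Slc7a11 held a sequence like the antioxidant response element, the kind of site that NRF2 and BACH1 bind, in a promoter. They are shown because they were the only 3 of the 8 members with a promoter entry that held a match. The windows are from RefSeq on GRCm38.p6, cover 250 bases before to 50 after a start site, and were searched on both strands for TGACNNNGC and TGAGNNNGC. Capitals mark the match, which lay on the strand opposite to the gene in each, and lines read 5′ to 3′ on the strand of the gene.
Blvrb: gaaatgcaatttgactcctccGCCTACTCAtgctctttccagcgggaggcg
Gclm: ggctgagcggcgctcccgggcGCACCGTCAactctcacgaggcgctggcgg
Slc7a11: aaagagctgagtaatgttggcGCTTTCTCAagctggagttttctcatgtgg
The Blvrb stretch is chr7:27447888-27447938 on the plus strand, with the match starting 69 bases before the start site. The Gclm stretch is chr3:122245402-122245452 on the plus strand, with the match 134 bases before it. The Slc7a11 stretch is chr3:50443681-50443731 on the minus strand, with the match 97 bases before it. Promoter entries were matched for 8 of the 10 genes, 11 promoters in all, and 3 of the 8 genes held one or the other motif, beside 27.8% of all 32851 promoters. TGACNNNGC occurred in 12.4% and TGAGNNNGC in 17.6% of all promoters, so a match is a description of these letters and not a binding site.

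The genes fell into different cells. Fth1 and Ftl1, the heavy and light chains of ferritin, had a UMI in 90.0% or more of the cells of each of the 11 types compared, in both libraries. Slc40a1, which encodes ferroportin, the exporter that carries iron out of the cell, and Slc7a11, the cystine carrier that feeds glutathione synthesis, were found mainly in neutrophils. Hmox1, the inducible heme oxygenase, was found mainly in mononuclear phagocytes, which held 74.2% of its 271 UMIs in the gonadotropin and 65.1% of its 272 UMIs in the untreated library.

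**Figure D1:**
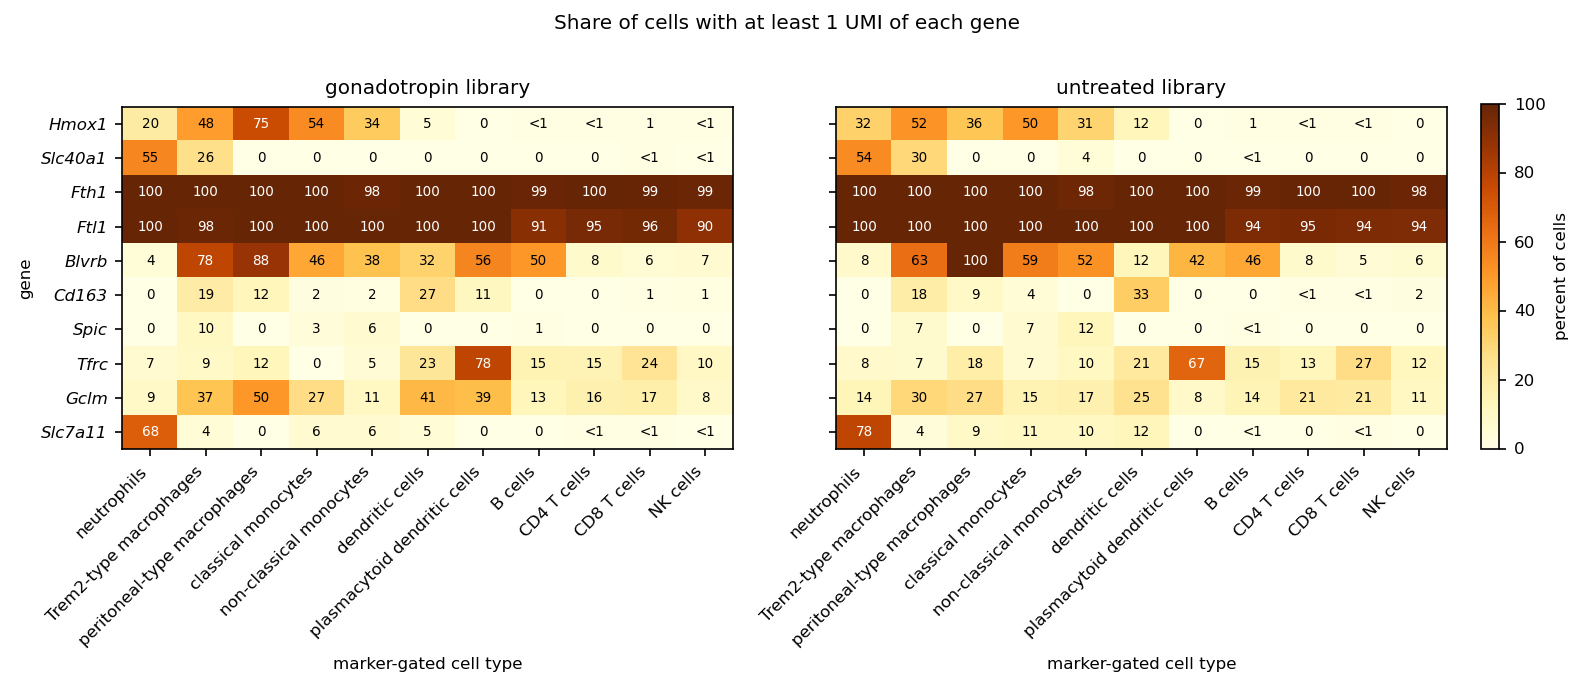
Share of cells with at least 1 UMI of each gene (percent, rows are genes) by marker-gated cell type (columns), gonadotropin library at the left and untreated library at the right. Slc40a1 was found in 55.3% of gonadotropin and 54.1% of untreated neutrophils and in no classical monocyte or dendritic cell of either library, while Fth1 and Ftl1 fill every column.

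Slc40a1 was found in neutrophils and in a share of the Trem2-type macrophages. Neutrophils of the 5 gonadotropin mice had 1.97, 3.15, 1.75, 5.16 and 4.02 Slc40a1 UMIs per 10000, and those of the 5 untreated mice 1.88, 3.70, 5.90, 2.03 and 4.95. The groups covered each other, with means of 3.21 ± 1.43 in gonadotropin and 3.69 ± 1.77 in untreated mice (SD, n = 5 each), and the edgeR log2 fold change was 0.06 ± 0.39 (SE, adjusted p = 0.956, 4 untreated mice with at least 5 cells). Ferroportin is best known from macrophages, enterocytes and hepatocytes, but here neutrophils held 109 of its 193 UMIs (56.5%) in the gonadotropin and 51 of 86 (59.3%) in the untreated library. The sign of the fold change was not stable, at -0.06 with a stricter gate and -0.04 with all 5 untreated mice.

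Cd163 and Spic, genes of heme-handling macrophages, had no UMI in the same neutrophils, 0 of 76 gonadotropin cells (up to 3.95% allowed) and 0 of 37 untreated cells (up to 8.11% allowed). Slc40a1 reached 42 of 76 gonadotropin and 20 of 37 untreated neutrophils, with 95% Clopper-Pearson intervals of 43.4 to 66.7% in gonadotropin and 36.9 to 70.5% in untreated neutrophils. B cells had Slc40a1 in 0 of 1050 gonadotropin cells (up to 0.286% allowed) and in 3 of 1383 untreated cells (0.217%). Median depth in the gonadotropin library was 6199 UMIs in B cells and 3832 in neutrophils, and in the untreated library 7205 in B cells and 4256 in neutrophils, so B cells were the deeper. After each cell was thinned to 2000 UMIs, 43.4% of gonadotropin and 32.4% of untreated neutrophils still had the gene.

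Trem2-type macrophages were the second holder of Slc40a1, with 50 UMIs in 18 of 68 gonadotropin cells (26.5%) and 23 UMIs in 8 of 27 untreated cells (29.6%). Per mouse they had 3.95, 0.0572, 0, 1.16 and 1.56 Slc40a1 UMIs per 10000 in the gonadotropin group and 1.21, 4.0, 0.295, 0.72 and 0.64 in the untreated group. The spread between mice was as large as the level, at 1.35 ± 1.61 UMIs per 10000 in gonadotropin and 1.37 ± 1.5 in untreated mice (SD, n = 5 each). A single gonadotropin cell of mouse 4 held 13 of the 50 UMIs, and a single untreated cell of mouse 1 held 8 of the 23. No Slc40a1 UMI was seen in 8 gonadotropin (up to 37.5% allowed) and 11 untreated (up to 27.3% allowed) peritoneal-type macrophages, nor in classical monocytes or dendritic cells.

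Trem2-type macrophages with Slc40a1 differed from those without it in depth and in other transcripts, described without a test because the split, added after the data were seen, used the same cells. Their median was 2262.5 UMIs with and 10249.5 UMIs without Slc40a1 in the gonadotropin group, and 2382 and 10317 in the untreated group, so the gene was found in the shallower cells. Vcam1, an adhesion protein of splenic red pulp macrophages, stood at 7.74 UMIs per 10000 with and 0.480 without Slc40a1 in gonadotropin cells, and at 4.09 and 0.0991 in untreated cells. Stab1, a scavenger receptor, stood at 7.89 with and 1.31 without Slc40a1 in gonadotropin cells, and at 7.06 and 1.24 in untreated cells. Both genes were thus higher beside Slc40a1 in either library. So was Mrc1, the mannose receptor, at 12.1 with and 2.69 without it in gonadotropin cells and 15.6 and 4.91 in untreated cells. Fth1 ran the same way, with 126.2 and 54.9 UMIs per 10000 in gonadotropin and 232.3 and 59.1 in untreated cells, and so did Blvrb, with 4.61 and 2.61 in gonadotropin and 8.92 and 1.73 in untreated cells. Ftl1 did too, with 86.6 and 58.8 in gonadotropin and 103.3 and 41.5 in untreated cells. Hmox1 had 2.08 and 1.04 in gonadotropin and 18.6 and 1.04 in untreated cells, where 1 cell held 23 of its 71 UMIs. By share of gonadotropin cells Hmox1 ran the other way, in 7 of 18 with and 26 of 50 without Slc40a1. Cd163 ran in opposite directions, with 0.298 and 0.512 in gonadotropin and 1.49 and 0.198 in untreated cells. In UMIs per 10000, Mertk, Axl and Siglec1, also of the red pulp list, were higher beside Slc40a1 in both libraries. Mertk stood at 3.42 with and 2.42 without it in gonadotropin cells and at 3.34 and 0.991 in untreated cells, Axl at 3.72 and 1.36 in gonadotropin and 3.72 and 1.93 in untreated cells, and Siglec1 at 0.893 and 0.224 in gonadotropin and 0.372 and 0.149 in untreated cells. Sirpa ran in opposite directions, with 4.47 and 2.35 in gonadotropin and 2.6 and 3.22 in untreated cells. So did Nr1h3, from few cells, with 0.149 and 0.112 in gonadotropin and 0 and 0.0991 in untreated cells. Treml4, also from few cells, had 0.149 and 0.112 in gonadotropin and 0.372 and 0 in untreated cells. By share of gonadotropin cells with a UMI, Mertk ran the other way, in 4 of 18 with and 28 of 50 without Slc40a1. Axl was even there, in 9 of 18 and 25 of 50. Siglec1 in untreated cells rested on 1 of 8 cells with and 2 of 19 without Slc40a1. Spic had 0.447 with and 0.08 without Slc40a1 in gonadotropin cells, and 3.72 and 0 in untreated cells, where 1 cell held 9 of the 10 UMIs. Marco, Timd4, Stab2 and Itgad had no UMI in either set. Mertk is a marker of the Trem2-type gate, Timd4 of the peritoneal-type gate and Treml4 of the non-classical monocyte gate. Their values in these cells thus depend in part on the gate. Cd5l, a secreted macrophage protein, had 0 UMIs with and 2.77 per 10000 without Slc40a1 in gonadotropin cells. The 18 gonadotropin cells came from 4 mice and the 8 untreated cells from 5 mice.

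Slc7a11 was found mostly in neutrophils. They held 198 of its 223 UMIs (88.8%) in the gonadotropin and 197 of 240 (82.1%) in the untreated library, and over all 10 mice their range stayed above that of every other type compared. Gonadotropin mice had 6.74, 1.99, 10.3, 8.08 and 3.66 Slc7a11 UMIs per 10000 in neutrophils, and untreated mice 20.2, 6.92, 11.8, 11.2 and 17.8. The means were 6.14 ± 3.33 in gonadotropin and 13.6 ± 5.34 in untreated mice (SD, n = 5 each), with 3 gonadotropin mice below every untreated mouse. In edgeR the log2 fold change was -1.17 ± 0.41 (SE) with an unadjusted p of 0.0112 and an adjusted p of 0.482, so the difference did not pass the threshold of 0.05 over the 794 genes tested.

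Many neutrophils had both Slc40a1 and Slc7a11. Of 76 gonadotropin neutrophils, 29 had both, 13 only Slc40a1, 23 only Slc7a11 and 11 neither. Of 37 untreated neutrophils, 16 had both, 4 only Slc40a1, 13 only Slc7a11 and 4 neither. Cells with both had a median of 4151 UMIs and cells with neither 3527 in the gonadotropin group, and 4339.5 and 4562 in the untreated group.

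Ftl1 had the lowest p-value of the members in neutrophils. It stood at 36.6, 31.2, 29.5, 31.0 and 24.1 UMIs per 10000 in neutrophils of gonadotropin mice and at 57.8, 41.2, 41.3, 79.0 and 43.0 in those of untreated mice. No gonadotropin mouse reached an untreated one. Over the 9 mice tested such a gap between the groups was seen for 3.15% of the 794 genes. The means were 30.5 ± 4.47 in gonadotropin and 52.5 ± 16.4 UMIs per 10000 in untreated mice (SD, n = 5 each), and edgeR gave a log2 fold change of -0.90 ± 0.24 (SE) with an unadjusted p of 0.00166 and an adjusted p of 0.274. Leaving out 1 mouse gave -1.02 to -0.62. Untreated mice 3, 4 and 5 had only 2, 6 and 5 neutrophils, and 1 cell of untreated mouse 4 held 140 of the 826 untreated Ftl1 UMIs. Fth1 stood at 78.9, 100, 58.8, 56.0 and 56.7 UMIs per 10000 in gonadotropin and at 154.0, 82.1, 44.9, 309.9 and 52.9 in untreated mice, and here the groups overlapped. Its edgeR log2 fold change of -1.17 ± 0.41 (SE, adjusted p = 0.482) was -0.46 without untreated mouse 4, in which 1 cell held 598 of the 2142 Fth1 UMIs of all untreated neutrophils.

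Of the 10 genes, 4 passed the count filter in neutrophils (Slc40a1, Fth1, Ftl1 and Slc7a11), and none was called by edgeR or by DESeq2, while 3 had an unadjusted p under 0.05 in edgeR. The background was also 0%, since edgeR called 0 of 794 genes, while 62 genes had an unadjusted p under 0.05, and DESeq2 called 0. Hmox1 was found in 15 of 76 gonadotropin neutrophils (19.7%) and 12 of 37 untreated ones (32.4%), at 0.553 ± 0.337 UMIs per 10000 (20 UMIs) in gonadotropin and 1.03 ± 0.327 (14 UMIs) in untreated mice. Gclm, the modifier subunit of the enzyme that starts glutathione synthesis, rested on 9 UMIs in gonadotropin and 16 in untreated neutrophils, 11 of them in untreated mouse 4.

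**Figure D2:**
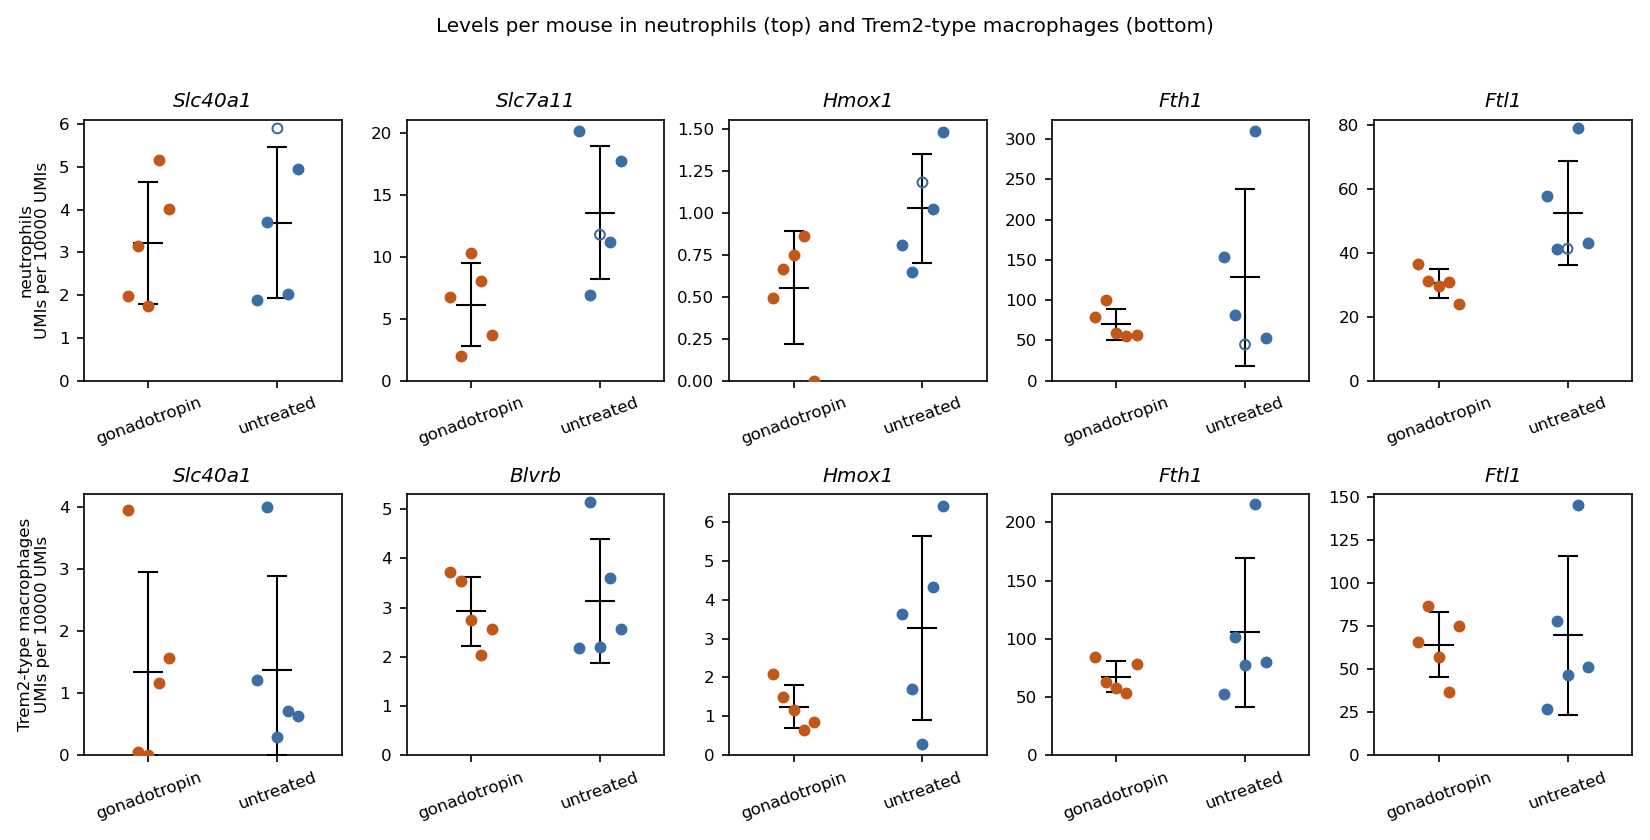
UMIs per 10000 UMIs of each mouse in neutrophils (top) and Trem2-type macrophages (bottom), gonadotropin left and untreated right; points are mice, the open point is the untreated mouse with 2 neutrophils, and bars are the mean and SD. In the neutrophil panel of Ftl1, the 5 gonadotropin mice lie between 24.1 and 36.6 and the 5 untreated mice between 41.2 and 79.0, while the groups overlap for Slc40a1 and Fth1.

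Hmox1 was highest in Trem2-type macrophages and varied widely between mice. Gonadotropin mice had 2.09, 1.49, 1.17, 0.661 and 0.853 Hmox1 UMIs per 10000 in these cells, and untreated mice 3.63, 1.71, 0.295, 4.32 and 6.40. The untreated mice lay both above and below all gonadotropin mice. The means were 1.25 ± 0.564 in gonadotropin and 3.27 ± 2.36 in untreated mice (SD, n = 5 each), and 1 untreated cell of mouse 1 held 23 of the 71 untreated UMIs. The share of cells with the gene was 48.5% in gonadotropin and 51.9% in untreated cells, and after thinning 25% in gonadotropin and 27.3% in untreated cells. Cells with Hmox1 were the deeper ones, with a median of 15107 UMIs against 2244 in the gonadotropin and 8095 against 2266 in the untreated group.

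Ferritin in the same macrophages overlapped between the groups. Ftl1 stood at 65.9, 86.6, 56.8, 36.6 and 75.3 UMIs per 10000 in gonadotropin and at 26.8, 77.7, 46.6, 145.4 and 51.5 in untreated mice. Fth1 stood at 84.1, 63.3, 58.1, 53.4 and 78.0 UMIs per 10000 in gonadotropin and at 53.0, 101.7, 77.5, 215.3 and 80.3 in untreated mice. Untreated mouse 4, with 4 of these cells, was the highest for both. Gclm was at 0.439 ± 0.233 in gonadotropin and 0.367 ± 0.294 in untreated mice.

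The ferritin chains differed in the order of their means over the cell types, but neutrophils and Trem2-type macrophages overlapped over mice for both chains. For Fth1 the SD was 80.6 in neutrophils, with the highest mouse at 309.9, and 47.8 in Trem2-type macrophages. For Ftl1 it was 16.2 in neutrophils and 33.4 in Trem2-type macrophages. Over both groups, with 9 or 10 mice a type, Fth1 averaged 99.4 UMIs per 10000 in neutrophils, 86.5 in Trem2-type macrophages, 61.5 in plasmacytoid dendritic cells and 33.6 in peritoneal-type macrophages, and B cells, at 19.5, lay above CD4 T cells, at 9.74, without overlap. Ftl1 averaged 66.9 in Trem2-type macrophages, 41.5 in neutrophils, 37.5 in peritoneal-type macrophages, 31.7 in classical and 30.7 in non-classical monocytes.

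For the tests the macrophage types were joined, since few mice had enough cells of 1 type, which gave 79 gonadotropin and 39 untreated cells with 5 to 20 a mouse. In edgeR the Hmox1 log2 fold change in macrophages was -0.73 ± 0.46 (SE, adjusted p = 0.948), with 148 ± 64 CPM (counts scaled to a common library total) in gonadotropin and 227 ± 145 in untreated mice (SD, n = 5 each). Fth1 had -0.18 ± 0.27, Ftl1 0.23 ± 0.29 and Blvrb 0.00 ± 0.28 (SE) in the same fit, and the sign for Fth1 turned to 0.15 with a stricter gate and without untreated mouse 4. These 4 genes passed the filter, and none was called. The background was 0% again, with 0 of 1845 genes called by edgeR, 111 at an unadjusted p under 0.05, and 9 called by DESeq2, none of them a member. Over all mononuclear phagocytes the 5 genes that passed, now with Gclm, were not called either, with Hmox1 at -0.35 ± 0.34 and Ftl1 at 0.26 ± 0.13 (log2 fold change, SE, adjusted p = 0.897 and 0.733, edgeR). That fit called 0% of 5353 genes, 380 at an unadjusted p under 0.05, and DESeq2 called 18, again without a member.

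Classical monocytes carried Hmox1 at 0.539 ± 0.275 UMIs per 10000 in gonadotropin and 0.913 ± 0.518 in untreated mice, and non-classical monocytes at 0.979 ± 1.11 in gonadotropin and 0.631 ± 0.315 in untreated mice (SD, n = 5 each). Averaged over both groups, the order of Hmox1 levels was Trem2-type macrophages at 2.26, non-classical monocytes at 0.805, neutrophils at 0.790, classical monocytes at 0.726, peritoneal-type macrophages at 0.373 and dendritic cells at 0.0332 UMIs per 10000. The ranges over mice of neighbours in this order overlapped at every step. B cells, CD4 and CD8 T cells and NK cells all stood under 0.0332 UMIs per 10000. In untreated B cells 57 of the 70 Hmox1 UMIs came from mouse 2, and 53 of them from 1 cell. Hmox1 did not pass the filter in B cells, and with no filter on low counts edgeR gave a log2 fold change of -3.06 ± 0.63 (SE, adjusted p = 0.00042), with those UMIs of untreated mouse 2 included. No Hmox1 UMI was seen in plasmacytoid dendritic cells.

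Blvrb, a reductase of biliverdin and flavins, was highest on average in peritoneal-type and Trem2-type macrophages. Averaged over both groups, these stood at 3.13 and 3.03 UMIs per 10000. Plasmacytoid dendritic cells at 0.954, non-classical monocytes at 0.863, B cells at 0.85 and classical monocytes at 0.647 came next. The ranges over mice of neighbours in this order overlapped. Trem2-type macrophages had 2.92 ± 0.700 UMIs per 10000 in gonadotropin and 3.14 ± 1.26 in untreated mice. Peritoneal-type macrophages had 3.67 ± 0.837 in gonadotropin and 2.70 ± 1.68 in untreated mice. The gene was thus present in peritoneal-type macrophages, in which Slc40a1 had no UMI. Neutrophils were low, at 0.0844 ± 0.119 in gonadotropin and 0.154 ± 0.154 in untreated mice, from 3 UMIs each. NK cells had 0.0859 ± 0.0383 in gonadotropin and 0.0762 ± 0.0509 in untreated mice.

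Cd163, the scavenger receptor for hemoglobin bound to haptoglobin, and Spic, the transcription factor of splenic red pulp macrophages, were sparse. Cd163 was found in 13 of 68 gonadotropin and 5 of 27 untreated Trem2-type macrophages, at 0.470 ± 0.518 UMIs per 10000 in gonadotropin and 0.583 ± 0.958 in untreated mice. A single Trem2-type macrophage of gonadotropin mouse 4 held 18 of the 34 gonadotropin UMIs. Dendritic cells had 0.388 ± 0.756 UMIs per 10000 in gonadotropin and 0.488 ± 0.668 in untreated mice, in 6 of 22 gonadotropin and 8 of 24 untreated cells. Of the 68 gonadotropin Trem2-type macrophages 2 had both Cd163 and Slc40a1, 16 only Slc40a1, 11 only Cd163 and 39 neither. Of the 27 untreated ones 2 had both, 6 only Slc40a1, 3 only Cd163 and 16 neither. The cells with Cd163 had a median of 21615 UMIs against 3324 in those without it in the gonadotropin group, and 18779 against 4800 in the untreated group. Spic had 8 UMIs in 7 gonadotropin and 10 UMIs in 2 untreated Trem2-type macrophages. B cells held 15 Spic UMIs in 12 of 1050 gonadotropin and 11 in 11 of 1383 untreated cells. The gene passed no count filter.

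Tfrc, the receptor that takes up iron bound to transferrin, was highest in plasmacytoid dendritic cells. These had 1.76 ± 1.16 UMIs per 10000 in 5 gonadotropin mice and 1.43 ± 0.435 in 4 untreated mice, in 14 of 18 gonadotropin and 8 of 12 untreated cells. Their range over mice, 0.675 to 3.52, lay above that of CD8 T cells, the next type by mean, with a highest mouse at 0.626. It overlapped that of dendritic cells, in which the highest mouse stood at 1.59. B cells had 0.236 ± 0.0522 UMIs per 10000 in gonadotropin and 0.223 ± 0.0412 in untreated mice, and NK cells 0.235 ± 0.0738 in gonadotropin and 0.198 ± 0.111 in untreated mice (SD, n = 5 each). In edgeR the B cell log2 fold change was 0.045 ± 0.155 (SE, adjusted p = 0.912).

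In edgeR, B cells gave the only member call among 8 fits between the groups. Blvrb stood at 1.17, 0.809, 0.868, 0.942 and 1.07 UMIs per 10000 in B cells of gonadotropin mice and at 0.752, 0.795, 0.683, 0.592 and 0.818 in those of untreated mice. The groups met only at 0.809 in a gonadotropin and 0.818 in an untreated mouse. With 97.7 ± 13.7 CPM in gonadotropin and 73.9 ± 7.76 CPM in untreated mice, the edgeR log2 fold change was 0.39 ± 0.10 (SE, adjusted p = 0.0493), just under the threshold of 0.05. Of the 5 genes that passed the filter in B cells it was the only one called, in a fit that called 2.55% of 9112 genes, with 1.56% of the 9112 called higher. Fth1 at -0.12 ± 0.07, Ftl1 at -0.18 ± 0.09 and Gclm at 0.20 ± 0.17 (log2 fold change, SE) were not called, nor was Tfrc.

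The call rested in part on a few cells full of hemoglobin transcripts. In the gonadotropin group 21 gated B cells had 47.2 to 77.0% of their UMIs in Hba-a1, Hba-a2, Hbb-bs and Hbb-bt, 7, 0, 2, 7 and 5 of them in the 5 mice, and no kept untreated cell had over 1%. A further 1 such cell was a gonadotropin phagocyte. Their median of 16834 UMIs compares with 6129 in the other 1029 gonadotropin B cells. They held the antigen presentation gene Cd74 at 80.5 UMIs per 10000 non-hemoglobin UMIs, beside 81.8 in the other B cells. They held Alas2, the first enzyme of heme synthesis in red cells, at 28.2 beside 0.00629.

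Gclm, Blvrb and both ferritin chains stood higher in these hemoglobin-rich cells per 10000 non-hemoglobin UMIs. Gclm was at 3.77 beside 0.175 in the other gonadotropin B cells, and in 18 of the 21 cells. Blvrb was at 4.54 beside 0.941, and in 20 of the 21 cells. Ftl1 was at 30.2 beside 5.46 and Fth1 at 33.9 beside 18.9. Hmox1, Slc40a1, Cd163 and Slc7a11 had no UMI in the 21 cells. The cells were defined by hemoglobin and these values are a description.

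Barcodes without a hashtag showed the same set of genes in droplets with little else. The gate called 33 gonadotropin and 4 untreated of them erythrocyte-like, with 96.6% of their UMIs in hemoglobin in the gonadotropin and 96.2% in the untreated library. Per 10000 non-hemoglobin UMIs the gonadotropin barcodes had 406.3 of Ftl1, 132.6 of Fth1, 40.7 of Gclm and 32.2 of Blvrb. The untreated barcodes had 337.2 of Ftl1, 416.9 of Fth1, 42.9 of Gclm and 18.4 of Blvrb. Hmox1, Slc40a1, Cd163, Spic and Slc7a11 had 0 UMIs in both sets. Cd74 had 5 UMIs in the 33 gonadotropin barcodes. The untreated values rest on 4 barcodes, among them 7 Gclm and 3 Blvrb UMIs.

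Without the hemoglobin-rich cells the Blvrb log2 fold change in B cells was 0.30 with an adjusted p of 0.109 in edgeR, and the call was lost, in a fit that called 2.41% of 9091 genes. The level was then 0.937 ± 0.149 UMIs per 10000 in gonadotropin and 0.728 ± 0.0917 in untreated B cells. Leaving out 1 mouse also ended the call for 9 of the 10 mice, all but gonadotropin mouse 2, with adjusted p from 0.0215 to 0.135, and DESeq2 gave 0.0184. The call was lost too at 0.0508 with no gene minimum and up to 20% mitochondrial UMIs. Gclm changed sign. It had 0.208, 0.257, 0.293, 0.216 and 0.229 UMIs per 10000 in all B cells of gonadotropin mice and 0.137, 0.257, 0.177, 0.169 and 0.145 without the hemoglobin-rich cells, beside 0.178, 0.240, 0.256, 0.150 and 0.181 in untreated mice. Its log2 fold change was 0.20 with and -0.25 without them in edgeR, and neither was called.

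**Figure D3:**
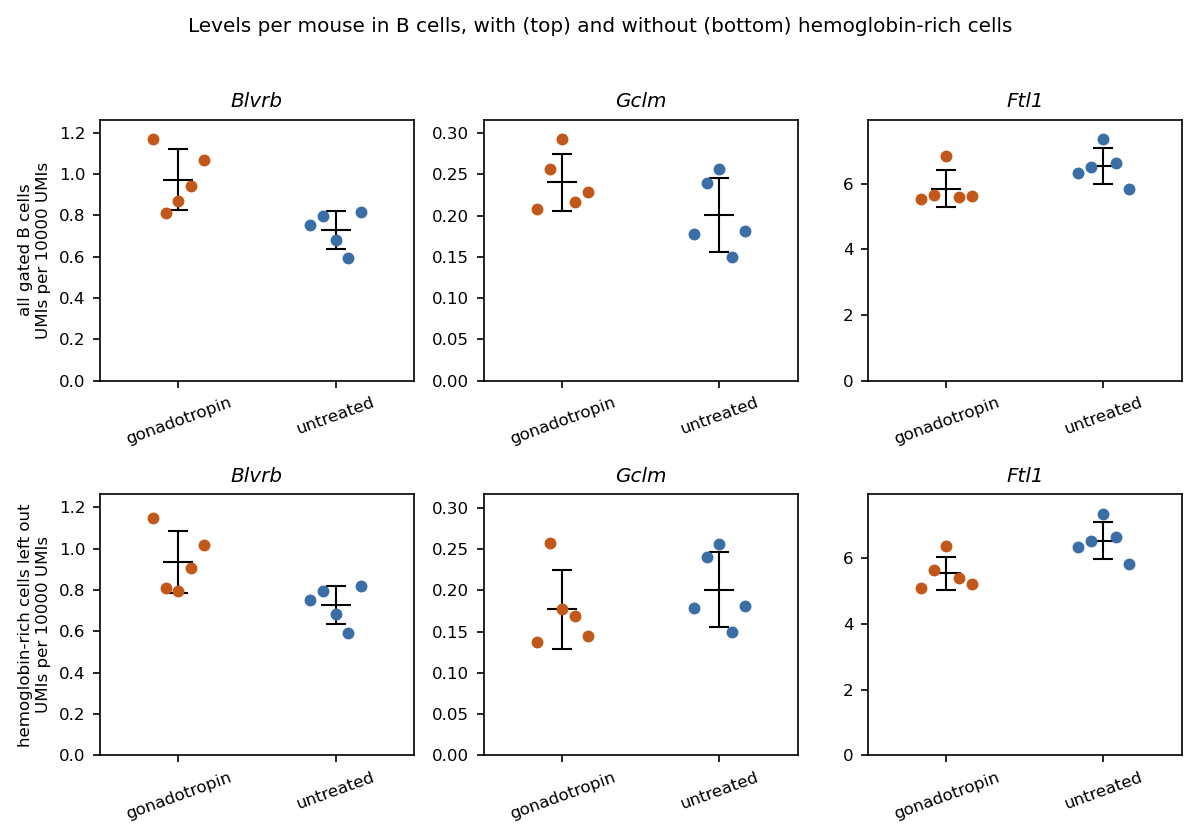
UMIs per 10000 UMIs of each mouse in B cells for Blvrb, Gclm and Ftl1, with all gated B cells (top) and with the 21 hemoglobin-rich cells left out (bottom); gonadotropin left, untreated right, bars are the mean and SD. Gclm in gonadotropin mice lies between 0.208 and 0.293 in the top row and between 0.137 and 0.257 in the bottom row, with untreated mice at 0.150 to 0.256 in both.

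Hemoglobin transcripts stood higher in every gonadotropin cell type tested, also apart from the hemoglobin-rich cells. With those left out, B cells had 0.489 ± 0.0562 hemoglobin UMIs per 10000 in gonadotropin and 0.0509 ± 0.00927 in untreated mice, and macrophages 0.542 ± 0.125 in gonadotropin and 0.0498 ± 0.0474 in untreated mice. Neutrophils had 0.542 ± 0.134 in gonadotropin and 0.0322 ± 0.0720 in untreated mice (SD, n = 5 each). In each of the 8 types all gonadotropin mice lay above all untreated mice. The exact two-sided permutation p was 0.00794 in each, the smallest that 5 against 5 mice can give, and the same after Benjamini-Hochberg adjustment over the 8 types. All mice of a group shared a library, so this p treats mice and not libraries as replicates and cannot tell treatment from library. The macrophages are also part of the mononuclear phagocytes, so these types are not all separate. After thinning, 11.7% of gonadotropin and 0.95% of untreated B cells had a hemoglobin UMI, beside 11.8% of gonadotropin and 0% of untreated neutrophils (0 of 37, up to 8.11% allowed) and 11.5% of gonadotropin and 3.03% of untreated macrophages. The means of the 8 types lay close together, in phagocytes and lymphocytes alike, and the source of these UMIs was not tested.

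**Figure D4:**
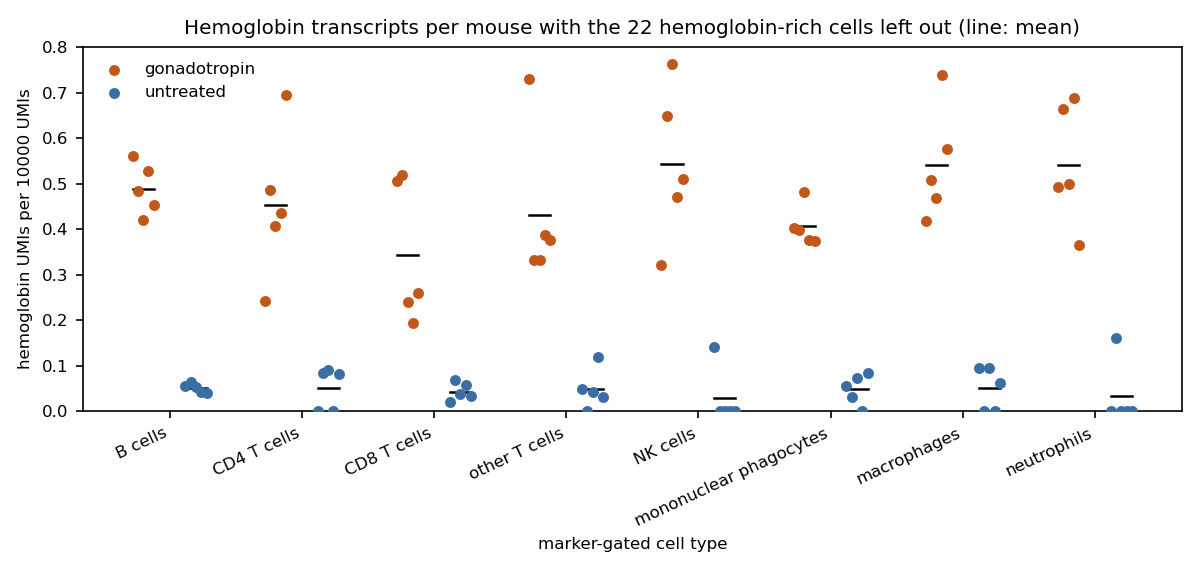
Hemoglobin UMIs (Hba-a1, Hba-a2, Hbb-bs and Hbb-bt summed) per 10000 UMIs of each mouse in 8 marker-gated cell types, with the hemoglobin-rich cells left out; gonadotropin left and untreated right in each pair, lines are means. The gonadotropin means of all 8 types lie between 0.344 and 0.543 and the untreated means between 0.0281 and 0.0509.

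Whether the genes go with hemoglobin from cell to cell was read within gonadotropin phagocytes thinned to 2000 UMIs. In the 4 mice with at least 3 such cells on both sides, 17 phagocytes had a hemoglobin UMI and 159 had none. Hmox1 was found in 12.5% of the first and 13% of the second set on average over mice, a difference of -0.485 ± 17.7 percentage points (SD, n = 4). Cd163 was found in 10.4% of cells with and 2.15% of cells without hemoglobin, higher in 2 of 4 mice, and Fth1 in 100% with and 94.1% without, higher in 4 of 4 mice. In Fth1 UMIs per cell, however, the cells with hemoglobin averaged 12.1 and those without 9.53, a difference of 2.58 ± 19 (SD, n = 4) that was positive in 1 of 4 mice. In exact two-sided sign-flip permutation tests no gene had an adjusted p under 1, and 4 mice cannot go below 0.125 unadjusted, which the share of cells with Fth1 reached. With 4 mice no p under 0.05 was possible at any depth, so the test cannot decide whether a difference exists.

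Over all CD45+ cells the members read the cell mix as well as the level per cell, and more cells of a type and more RNA per cell cannot be told apart there. Slc40a1 had 0.0882, 0.112, 0.0268, 0.116 and 0.105 UMIs per 10000 in gonadotropin mice and 0.0442, 0.0691, 0.0218, 0.0274 and 0.0262 in untreated mice. All but gonadotropin mouse 3 lay above the untreated mice. The means were 8.81 ± 3.64 CPM in gonadotropin and 3.86 ± 1.94 CPM in untreated mice (SD, n = 5 each), and the edgeR log2 fold change of 1.18 ± 0.36 (SE) missed the threshold with an adjusted p of 0.0589, while DESeq2 gave 0.0332. The adjusted p was also under the threshold without gonadotropin mouse 3 (0.0196), without untreated mouse 2 (0.0276), with no count filter (0.0443) and with no gene minimum and up to 20% mitochondrial UMIs (0.0279). Neutrophils, its main holder, made up 3.07% ± 0.769 of gonadotropin and 1.49% ± 0.779 of untreated cells, and Trem2-type macrophages 3.17% ± 1.33 of gonadotropin and 1.28% ± 0.793 of untreated cells (SD, n = 5 each). Within neutrophils its log2 fold change was 0.06, as given above.

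None of the 9 members that passed the filter over all cells was called, in a fit that called 9.12% of 11266 genes in edgeR. DESeq2 called Slc40a1 alone, and 3 members had an unadjusted p under 0.05 in edgeR, namely Slc40a1, Blvrb and Ftl1. Blvrb had a log2 fold change of 0.24 ± 0.09 (SE, adjusted p = 0.123) and Ftl1 of 0.36 ± 0.16 (SE, adjusted p = 0.189). Hmox1, Cd163, Fth1, Tfrc, Gclm and Slc7a11 had values between -0.12 and 0.44 with adjusted p of 0.657 or more. In CD4 T cells, CD8 T cells and NK cells, 3, 3 and 2 members passed the filter and none was called by edgeR or DESeq2, in fits that called 0.0838% of 4773, 1.7% of 4930 and 0.0187% of 5358 genes. Ftl1 was at -0.20 ± 0.12 in CD4 T cells, -0.28 ± 0.11 in CD8 T cells and -0.20 ± 0.12 in NK cells (log2 fold change, SE). Of these 8 values 1, that of Ftl1 in CD8 T cells, had an unadjusted p under 0.05 (0.0208).

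**Figure D5:**
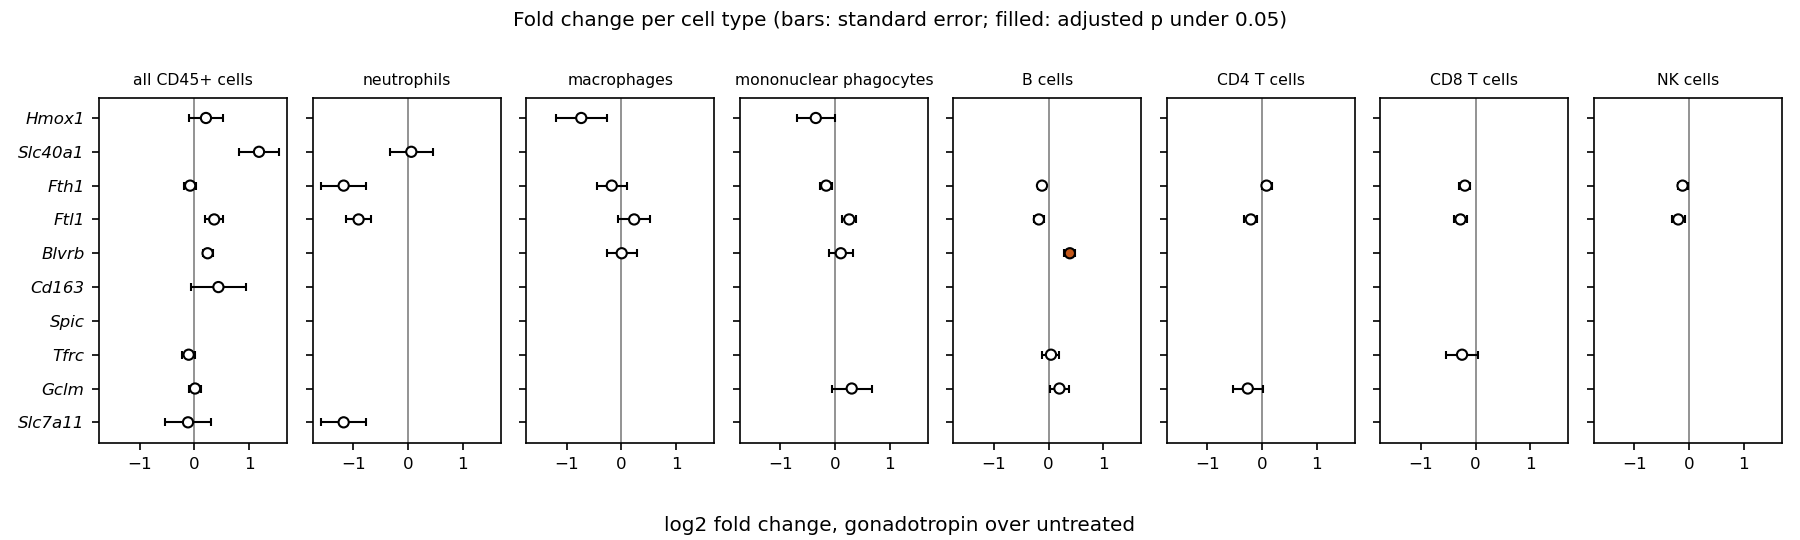
Log2 fold change, gonadotropin over untreated, of each gene that passed the count filter (from top to bottom) in 8 cell sets, 1 panel each; bars are the standard error, filled points have an adjusted p under 0.05 in edgeR and a missing point marks a gene that did not pass. The filled point is Blvrb in B cells at 0.39; Ftl1 is at -0.90 in neutrophils and 0.23 in macrophages.

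Whether a change differed between types was tested with a treatment-by-type term in edgeR, each mouse being a term of its own. The comparison of neutrophils with mononuclear phagocytes was not planned beforehand. In it Ftl1 had a log2 fold change lower by 0.99 ± 0.33 (SE) in neutrophils, with an unadjusted edgeR p of 0.00478 and an adjusted p of 0.546. That fit called 0.0258% of 3881 genes and no member. Macrophages against B cells gave 0.65 ± 0.27 for Ftl1 and 1.62 ± 0.86 for Hmox1 (SE, adjusted p = 0.751 and 0.878), in a fit that called 0.0368% of 8160 genes and no member. The Hmox1 value was 0.18 without untreated mouse 2, and 1.38 to 2.03 without any other single mouse. Slc40a1 had 3.27 ± 1.29 (SE, edgeR adjusted p = 0.74). The B cells of gonadotropin mice held none of its UMIs, so this fitted value depends on the prior count and is no bound. The median of all genes was 0.088 in the neutrophil fit and 0.162 in the B cell fit, and moved to -0.043 and -0.013 with DESeq2 size factors. No difference between types passed the threshold for a member.

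Other genes of the pathways were counted in lists beside the members. Over all CD45+ cells, 9 of 13 other heme genes were tested, 8 had a positive log2 fold change and 2 rose, in the fit that called 9.12% of all genes, with a median of 0.24 beside -0.003 for all genes. Without the hemoglobin-rich cells 7 of the 9 were positive and 2 rose, with a median of 0.179. Hp, which encodes the hemoglobin-binding protein haptoglobin, rose by 1.25 ± 0.24 (SE, adjusted p = 0.00826), and averaged 59.4 ± 17.2 CPM in gonadotropin mice and 24.1 ± 8.88 CPM in untreated mice. Within neutrophils Hp averaged 2198 ± 814 CPM in gonadotropin and 1773 ± 1198 CPM in untreated mice, at a log2 fold change of 0.34 ± 0.39 (SE, adjusted p = 0.821, edgeR), and within mononuclear phagocytes it was at 0.58 ± 0.27 (SE, adjusted p = 0.694). Neutrophils made up 3.07% ± 0.769 of the cells of gonadotropin and 1.49% ± 0.779 of those of untreated mice (SD, n = 5 each), and the part of this share in the Hp result was not tested. Lrp1, a receptor that takes up heme bound to hemopexin, rose by 0.85 ± 0.21 (SE, adjusted p = 0.0236, edgeR) over all cells, and was at 0.12 ± 0.14 within mononuclear phagocytes (SE, adjusted p = 0.926). Of 26 other iron genes 19 were tested and none was called, with a median of 0.13, or 0.085 without the hemoglobin-rich cells. Of 18 NRF2 and glutathione genes 14 were tested and 1 rose, beside 9.12% called of all genes. This was Gsr, the glutathione reductase, which averaged 99.8 ± 15.6 CPM in gonadotropin mice and 57.4 ± 18.8 CPM in untreated ones (log2 fold change 0.78 ± 0.19, adjusted p = 0.0208, edgeR). Within neutrophils Gsr averaged 2914 ± 435 CPM in gonadotropin and 2962 ± 1163 CPM in untreated mice, at a log2 fold change of 0.005 ± 0.239 (SE, adjusted p = 0.995), and edgeR called it in none of the types where it was tested. The part of the neutrophil share in this result was not tested either. The median of that list was 0.13.

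Genes of red pulp and erythrophagocytic macrophages were the list with the highest median among the macrophage and pathway lists. All 9 tested of 14 were positive over all CD45+ cells and 4 rose, with a median of 1.35, in the fit that called 9.12% of all genes. Mertk, a receptor for dying cells, rose by 2.19 ± 0.52 (SE, adjusted p = 0.0208), and Stab2 and Stab1, scavenger receptors, by 2.51 ± 0.69 and 1.35 ± 0.37 (SE, adjusted p = 0.0380 and 0.0393, edgeR). Itgad, an integrin chain of red pulp macrophages, rose by 1.64 ± 0.48 (SE, adjusted p = 0.0498, edgeR). Mertk is itself a marker of the Trem2-type gate. Within macrophages 6 of the list were tested, all 6 positive with a median of 0.38, and none was called by edgeR. Within mononuclear phagocytes 7 were tested, 3 of them positive with a median of -0.019 beside 0.004 for all genes, and none was called. Stab2 and Itgad had no UMI in the Trem2-type macrophages of either group. The share of macrophages was 3.71% ± 1.62 in gonadotropin and 1.75% ± 0.873 in untreated mice (SD, n = 5 each), that of peritoneal-type macrophages 0.416% ± 0.393 in gonadotropin and 0.429% ± 0.289 in untreated mice, and the part of these shares in the list's values was not tested.

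Within single types few list genes passed. In B cells 6 other heme genes were tested and 1 rose, Fech, the last enzyme of heme synthesis, by 1.05 ± 0.25 (SE, adjusted p = 0.0307, edgeR), and none was called without the hemoglobin-rich cells. Of 12 NRF2 and glutathione genes in B cells Gpx4, which reduces lipid peroxides, fell by 0.33 ± 0.08 on the log2 scale (adjusted p = 0.0445, and 0.0505 without the hemoglobin-rich cells, edgeR). None of 12 iron genes was called. In neutrophils 1 heme, 2 iron and 5 glutathione genes were tested, in macrophages 3, 5 and 8, and in mononuclear phagocytes 6, 9 and 13, and edgeR called none of them. Of the lists for other cells, 5 of 14 erythrocyte genes were tested over all cells and all 5 rose, 4 of them also without the hemoglobin-rich cells. The granulosa cell gene Kctd14 fell by 0.96 on the log2 scale over all cells (adjusted p = 0.0113, edgeR), with 15.9 ± 2.26 CPM in gonadotropin mice and 31.4 ± 10.4 CPM in untreated mice. Its level in B cells was higher than over all cells, averaging 36 ± 5.57 CPM in gonadotropin mice and 52.5 ± 15.4 CPM in untreated mice (SD, n = 5 each; log2 fold change -0.52 ± 0.17, SE, adjusted p = 0.105). B cells made up 42.5% ± 3.51 of gonadotropin and 54.4% ± 4.39 of untreated cells, and the part of that share in the Kctd14 result was not tested. No luteal or theca, endothelial or platelet gene was called over all cells, with 2, 1 and 1 tested. In B cells the endothelial list gave Pecam1, which B cells also express, at 0.34 ± 0.08 (SE, adjusted p = 0.0257, edgeR).

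The genes whose pattern was most like that of 3 members were found over 23 sums of a cell type in a library, among 8743 genes. These values describe sums that share libraries and carry no test. Slc40a1 was followed most closely by Fpr1, the formyl peptide receptor of neutrophils (Pearson r = 0.912 of log2 CPM), then Mmp9, Cd63, Il1rn and Siglece. Slc7a11 was followed by Srgn (r = 0.933), Neat1, Csf3r, Fbxl5 and Fpr1. Mmp9 and Csf3r are markers of the neutrophil gate. Hmox1 was followed by Slc11a1, a transporter of divalent metals in phagocyte vesicles (r = 0.949), then Itgb5, Klra2, Pilrb1 and Fcgr4.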

How the data were processed

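The deposited counts are UMIs, given for each gene and barcode as whole numbers that the authors did not normalize, per the file headers and the values. Cell Ranger, Seurat, bcl2fastq and the build mm10 are listed in the submitters' processing notes, and versions are not given in the sources used here. Hashtag calls are the authors' own. Barcodes called doublets (693 gonadotropin, 655 untreated) and those without a hashtag (69 gonadotropin, 20 untreated) entered no test. Doublets within a mouse share a hashtag, and no caller for them was run. Gonadotropin mice had 2608262 to 7097779 UMIs each, untreated mice 2559097 to 6500466.

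A cell entered a lineage when at least 2 of its markers had a UMI and their UMIs were at least 3 times those of every other lineage, and a phagocyte took the type with most markers detected. No member is a marker. Cells with over 1% of UMIs in hemoglobin genes are called hemoglobin-rich. Counts summed per mouse and type went into edgeR 4.0.16 (limma 3.58.1, R 4.3.3), with TMM scaling, its filter for low counts and the quasi-likelihood test. P-values were adjusted by Benjamini-Hochberg over all genes of a fit, with a threshold of 0.05. CPM use TMM-scaled totals and UMIs per 10000 plain totals. Mice with at least 10 cells of a type entered. Macrophages, neutrophils and the differences between types used at least 5, set after seeing the data because fewer than 3 untreated mice had 10. Detection was also read after thinning cells to 2000 UMIs. Shares have 95% Clopper-Pearson intervals, and a count of 0 allows 3 counts; both cover counting error only.

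Scanpy 1.11.5, numpy 2.4.6, scipy 1.17.1 and pandas 2.3.3 were used, DESeq2 1.42.0 was an alternative test, and the fits were tested on simulated data. Ftl1 and Fth1 have processed copies in the genome, so the split of their reads is uncertain. The members and lists were chosen with earlier results of these data known. All members are named, and list genes where they pass the test, at most 6 a fit by smallest p; Mertk, Stab1 and the other genes of Slc40a1 macrophages come from the red pulp list. The genes most alike are the 5 with the highest Pearson r.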

Additional observations from a re-analysis of the deposited data

Results flagged for a closer look

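In 4 of 70 sets of mice, 1 mouse stood far from the rest of its group; chance gives this in about 1 in 20 groups. Ftl1 was highest in B cells of gonadotropin mouse 3, at 6.85 UMIs per 10000, with the other 4 mice between 5.52 and 5.64. Ftl1 in CD4 T cells was highest in gonadotropin mouse 2, at 5.83 UMIs per 10000. Ftl1 in CD8 T cells was highest in untreated mouse 5, at 4.95 UMIs per 10000. Fth1 in macrophages was highest in untreated mouse 4, at 129.2 UMIs per 10000, from 5 cells.

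Among the barcodes without a hashtag, which entered no test, 33 of 69 gonadotropin and 4 of 20 untreated ones were erythrocyte-like, and their Ftl1, Gclm and Blvrb values are given above.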

How the results depend on the processing

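No paired analysis was possible because the mouse numbers only name mice within separate pools. Of 799 alternative values of single members, 747 kept their direction and their side of the threshold. Some settings left the data of a type unchanged, such as dropping hemoglobin-rich cells where a type held none. Values from those settings could only stay the same and are part of the 747. The member calls that changed were Blvrb in B cells and Slc40a1 over all cells, both given above, and Hmox1 in B cells, called with no filter on low counts (-3.06 ± 0.63, SE, edgeR adjusted p = 0.00042), where 53 of its 70 untreated UMIs lay in 1 cell. The causes of the changes below were not tested.

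The number of genes called moved by over 1.5 times in several fits. With DESeq2 it was 351 in B cells, 7 in NK cells, 18 in mononuclear phagocytes and 9 in macrophages. With no filter on low counts it was 592 in B cells, 44 in CD4 T cells, 131 in CD8 T cells, 56 in NK cells, 48 in mononuclear phagocytes, 83 in macrophages and 11 in neutrophils. With a gate factor of 6 it was 2 in CD4 T cells and 2 in macrophages. With Leiden clusters in place of the gate it was 30 in CD4 T cells, 4 in NK cells, 1 in mononuclear phagocytes and 2 in macrophages. With at least 20 cells a mouse it was 52 in CD8 T cells and 10 in mononuclear phagocytes. With DESeq2 size factors the difference between macrophages and B cells gave 5. Leaving out 1 mouse gave 682 to 1063 calls over all cells, 53 to 280 in B cells, 1 to 7 in CD4 T cells, 33 to 95 in CD8 T cells, 1 to 5 in NK cells, 0 to 10 in mononuclear phagocytes, 0 to 7 in macrophages, 0 in neutrophils, 3 to 12 for macrophages against B cells and 1 to 4 for neutrophils against mononuclear phagocytes.

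Some log2 fold changes that had not passed the threshold changed sign. Gclm was at -0.16 over all cells and -0.25 in B cells without the hemoglobin-rich cells. Fth1 was at 0.06 in mononuclear phagocytes and 0.66 in macrophages with Leiden clusters, and at 0.15 in macrophages with the stricter gate. Slc40a1 in neutrophils was at -0.06 with that gate and -0.04 with no minimum of cells. For macrophages against B cells Fth1 was at -0.02 with DESeq2 size factors. For neutrophils against mononuclear phagocytes Hmox1 was at -0.12 with those factors and -0.06 without the hemoglobin-rich cells. Leaving out 1 mouse gave -0.05 to 0.07 for Gclm and -0.35 to 0.15 for Slc7a11 over all cells, -0.06 to 0.11 for Tfrc in B cells, -0.07 to 0.21 for Blvrb in mononuclear phagocytes, -0.29 to 0.15 for Fth1 in macrophages and -0.22 to 0.28 for Slc40a1 in neutrophils. For macrophages against B cells it gave -0.02 to 0.25 for Fth1, -0.03 to 1.36 for Tfrc and -0.04 to 0.60 for Gclm. For neutrophils against mononuclear phagocytes it gave -0.57 to 0.37 for Hmox1 and -0.84 to 0.76 for Slc40a1.

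The hemoglobin difference in mononuclear phagocytes, hemoglobin-rich cell included, ran from 0.359 to 10.7 UMIs per 10000 when 1 mouse was left out. Without any 1 untreated mouse it was 8.63 to 8.65 with an exact permutation p of 0.452. The Hmox1 difference between phagocytes with and without hemoglobin ran from -7.72 to 5.41 percentage points. At 1000 UMIs per cell, Slc40a1 was found in 7.69% of untreated Trem2-type macrophages and Slc7a11 in 51.4% of untreated neutrophils. At that depth, and in macrophages alone, too few mice were left to compare phagocytes with and without hemoglobin.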
